A study of Mus musculus with 17 samples.

Results

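MicroRNA precursors of skeletal muscle were measured by array in male C57BL/6N mice that received streptozotocin (STZ), which destroys the beta cells that make insulin, with or without bezafibrate (BEZ), a fibrate that activates the PPAR receptors. The precursors were taken as every probe set of a whole-transcript array with exactly 1 gene symbol that starts with Mir and a digit or with Mirlet7, leaving out 4 host genes whose symbols end in hg, and of several probe sets for a gene the brightest on average over the 17 arrays was used. This gave 296 precursors of 19938 genes. A further 61 probe sets list a precursor among several symbols and were not analysed here.

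A microRNA gene is copied into a long primary transcript, from which the nuclear enzyme Drosha and its partner Dgcr8 cut a hairpin, and Dicer1 then trims the hairpin to the short mature strand that Argonaute proteins carry to target mRNAs. Bases 2 to 8 of the mature strand, the seed, largely decide which mRNAs it pairs with. In striated muscle miR-1, miR-133 and miR-206 are made from shared primary transcripts, while miR-208a and miR-499 lie within introns of the myosin genes Myh6 and Myh7b. The probe sets read RNA of the precursor genes, so primary transcript and hairpin cannot be told apart and the amount of mature microRNA is not what is given here.

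The groups were 5 mice given STZ and BEZ in the diet (STZ,BEZ), 5 given STZ and the standard diet (STZ,SD) and 7 mock-injected mice on the standard diet (Con,SD), all wildtype and aged 5 to 6 months. STZ was given at 65 mg/kg on 5 days at an age of 10 to 16 weeks, and BEZ was fed for 8 weeks from 2 weeks after STZ. The labels give 0.25% or 0.5% BEZ without tying either strength to a mouse, so STZ,BEZ stayed 1 group, and the study's methods differ from the labels in the STZ dose, in naming only the higher BEZ strength and in describing the controls as untreated. The sources used here do not give the muscle that was sampled.

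Values were log2 expression values, and a precursor was called where the adjusted p of limma, fitted over all 19938 genes, was under 0.1. All 13 skeletal muscle markers were measured, and their mean level was 12.45 to 12.73 on the STZ,BEZ arrays, 12.16 to 12.76 on the STZ,SD arrays and 12.13 to 12.68 on the Con,SD arrays. Correlations between arrays of a group were 0.987 to 0.993 in STZ,BEZ, 0.988 to 0.994 in STZ,SD and 0.952 to 0.991 in Con,SD. The 14 hepatocyte markers had a mean level of 11.65 on Con,SD array 1 and at most 9.66 on any other array. The 51 small nucleolar RNAs averaged 7.18 to 7.59 in STZ,BEZ and 7.24 to 7.45 in STZ,SD, against 6.62 to 6.99 in Con,SD. The 1027 olfactory receptor genes, which muscle is not known to use, averaged 4.80 and 4.96 on Con,SD arrays 3 and 4 and at most 4.65 elsewhere. In bulk muscle, fewer cells of a type and less RNA per cell cannot be told apart.

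The mature sequences below carry the results that follow, with the seed in capitals. They are RefSeq sequences of the mouse build GRCm38.p6, in which 271 of the 296 precursors had a sequence and 270 a mature one. The first set is the miR-99/100 family with let-7 and miR-125 microRNAs, shown because precursors of one seed were higher in STZ,SD on 3 chromosomes. Of these, let-7c, let-7e, miR-125b and miR-125a are encoded on the same chromosomes as the family, while let-7f is encoded on chromosomes 13 and X.
mmu-miR-99a-5p: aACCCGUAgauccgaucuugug
mmu-miR-100-5p: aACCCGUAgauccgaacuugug
mmu-miR-99b-5p: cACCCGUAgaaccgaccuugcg
mmu-let-7c-5p: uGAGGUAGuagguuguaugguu
mmu-let-7e-5p: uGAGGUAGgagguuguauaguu
mmu-let-7f-5p: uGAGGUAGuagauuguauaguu
mmu-miR-125b-5p: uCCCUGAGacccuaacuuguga
mmu-miR-125a-5p: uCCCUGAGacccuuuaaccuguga
The mature miR-99a-5p lies at chr16:77598940-77598961, miR-100-5p at chr9:41531437-41531458 and miR-99b-5p at chr17:17830194-17830215, all on the + strand. They share all 7 seed bases. Over 22 positions miR-99a-5p and miR-100-5p are the same at 21, and miR-99a-5p and miR-99b-5p at 18.

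The second set holds 3 muscle microRNAs, shown because their precursors did not pass the test beside those of miR-1 that did.
mmu-miR-206-3p: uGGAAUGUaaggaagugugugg
mmu-miR-208a-3p: aUAAGACGagcaaaaagcuugu
mmu-miR-499-5p: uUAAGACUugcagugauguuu
The myosin-gene microRNAs miR-208a-3p and miR-499-5p agree at 6 of 7 seed positions and at 12 of 21 positions compared. The mature miR-206-3p lies at chr1:20679055-20679076 on the + strand.

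The third set gives microRNAs whose precursors were lower or higher in STZ,SD outside those families.
mmu-miR-680: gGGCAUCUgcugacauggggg
mmu-miR-713: uGCACUGAaggcacacagc
mmu-miR-204-5p: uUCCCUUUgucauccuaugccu
mmu-miR-149-5p: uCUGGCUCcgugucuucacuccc
mmu-miR-677-5p: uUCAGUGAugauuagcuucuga
mmu-miR-155-5p: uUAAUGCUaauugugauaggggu
The sequence of miR-680 is identical for Mir680-1, Mir680-2 and Mir680-3, which lie on chromosomes 6, X and 12.

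Most precursor probe sets were dim. Their level, the mean over 17 arrays, had a median of 4.82 and ran from 3.23 to 9.34, with quartiles at 3.96 and 6.22, against a median of 6.62 over all genes. The olfactory receptors had a median of 4.43 and a 95th percentile of 5.85, and 89 of the 296 precursors lay above that percentile while 207 lay at or under it. The brightest probe sets were Mir692-1 at 9.34, Mir568 at 9.10 and Mir598 at 8.91. Brightness depends on each probe set's own probes, so the order of these signals is not an order of amounts. The distribution of levels shows precursors peaking at the dim end with the olfactory receptors, and a tail reaching into the range of all genes.

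**Figure D1:**
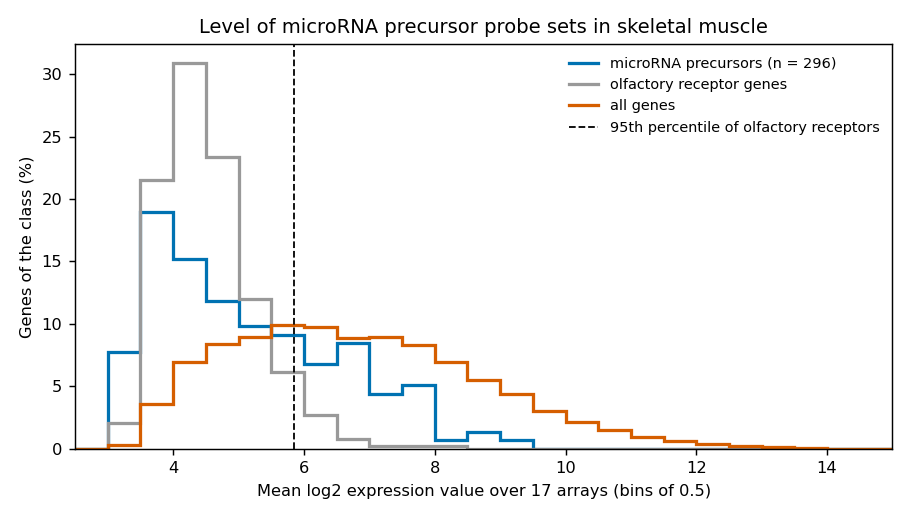
Share of genes (y axis, percent of the class) in bins of the mean log2 expression value over 17 arrays (x axis) for the 296 microRNA precursors, the olfactory receptor genes and all genes. The dashed line is the 95th percentile of the olfactory receptors, 5.85, and 89 of the 296 precursors lie above it.

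Between STZ,SD and Con,SD, 44 of 296 precursors passed the test, 33 higher and 11 lower in STZ,SD, which is 14.9% of the precursors. Over all genes 25.8% were called, 13.9% higher and 11.9% lower. Without STZ,SD array 3 the split was 22 higher and 7 lower, and after a further quantile normalization it was 41 higher and 7 lower. The median difference was 0.02 over the precursors and -0.01 over all genes, and 165 of the 296 differences were above 0. Among the 89 precursors above the olfactory level, 15 were higher and 2 lower (19.1% called, against 33.2% of the 12970 genes at such levels), and among the 207 others 18 were higher and 9 lower (13.0%, against 11.9% of 6968 genes). The olfactory receptors themselves were lower in STZ,SD for 196 of 1027 and higher for 3, with a median of -0.15, so a small fall of a dim precursor stood beside a fall of genes that muscle is not known to use. Small nucleolar RNAs, the other class of short RNA genes, were higher for 37 of 51 and lower for 0, with a median of 0.49. The part of either shift in the precursor results was not tested.

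**Figure D2:**
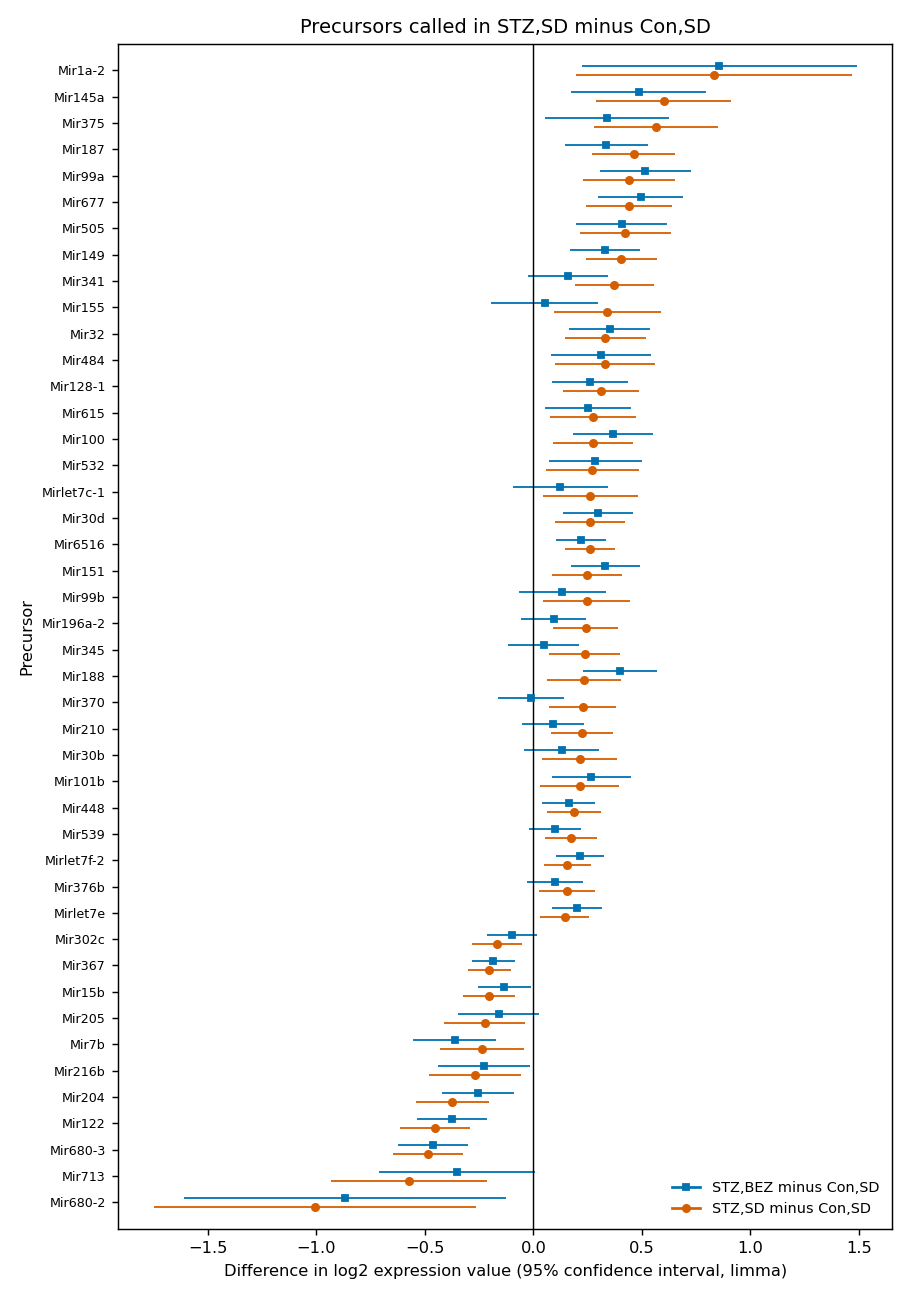
Difference in log2 expression value (x axis) for the 44 precursors called between STZ,SD and Con,SD (y axis), as STZ,BEZ minus Con,SD (squares) and STZ,SD minus Con,SD (circles), with 95% confidence intervals of the limma fit. The differences of STZ,SD minus Con,SD run from 0.83 for Mir1a-2 at the top to -1.01 for Mir680-2 at the bottom, and the 2 comparisons share the Con,SD arrays.

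The muscle microRNAs were represented by 8 precursors, and the 4 that encode miR-1 and miR-133a had the largest differences of the 8. Mir1b, Mir133b, Mir208b and Mir486 were not analysed here because no probe set carried them as its only symbol. In STZ,SD against Con,SD 1 of the 8 was higher and 0 lower, beside 25.8% called over all genes, and 8 of 8 differences were above 0 with a median of 0.32. In STZ,BEZ against Con,SD 2 were higher and 0 lower, beside 21.6% over all genes, with a median of 0.33.

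Mir1a-2, a gene for miR-1 on chromosome 18, read 5.28, 4.67, 4.11, 4.92 and 5.68 on the STZ,BEZ arrays. On the STZ,SD arrays it read 6.34, 4.57, 5.03, 4.18 and 4.41, and in Con,SD the lowest, median and highest values were 3.73, 3.96 and 4.53. On 4 of 5 STZ,BEZ arrays and 3 of 5 STZ,SD arrays it lay above every Con,SD array, and array 1 of STZ,SD stood highest. The difference STZ,SD minus Con,SD was 0.83 ± 0.30 (SE, 1.78-fold, adjusted p = 0.0631), and STZ,BEZ minus Con,SD was 0.86 ± 0.30 (adjusted p = 0.0655). The first was 0.47 without STZ,SD array 1 (adjusted p = 0.174), 0.80 without STZ,SD array 3 (adjusted p = 0.124) and 0.78 without Con,SD array 4 (adjusted p = 0.103). The second lost its call without STZ,BEZ array 5 (0.67), STZ,BEZ array 1 (0.77), STZ,BEZ array 4 (0.86) or Con,SD array 4 (0.80). All values but that of STZ,SD array 1 lay under 5.85, the 95th percentile of the olfactory receptors that mark the unexpressed level.

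Mir133a-1, which encodes miR-133a beside Mir1a-2 on chromosome 18, read 7.50, 7.20, 7.04, 6.79 and 7.68 in STZ,BEZ. It read 8.28, 6.60, 7.15, 7.22 and 7.18 in STZ,SD, and 6.19, 6.85 and 7.12 as the lowest, median and highest of Con,SD. Array 1 of STZ,SD was again the highest of all, array 2 of STZ,SD lay under the Con,SD median, and the groups overlapped. The difference STZ,SD minus Con,SD of 0.53 ± 0.22 (adjusted p = 0.105) did not pass the test. It was 0.28 without STZ,SD array 1, and it was called without STZ,SD array 2 (0.70, adjusted p = 0.0386) or Con,SD array 7 (0.59, adjusted p = 0.0836).

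Mir1a-1, the miR-1 gene of chromosome 2, read 4.73, 4.84, 4.71, 5.11 and 6.02 in STZ,BEZ. The STZ,SD arrays read 5.98, 4.39, 5.14, 4.78 and 4.80, and the Con,SD arrays had 4.27 as the lowest, 4.47 as the median and 4.69 as the highest value. All 5 STZ,BEZ arrays lay above all 7 Con,SD arrays, and in STZ,SD array 2 fell within the Con,SD range. STZ,BEZ minus Con,SD was 0.58 ± 0.23 (adjusted p = 0.0998), just inside the threshold, with 0.35 without STZ,BEZ array 5 (adjusted p = 0.280), and it was called in 5 of the 17 fits that left out 1 array. STZ,SD minus Con,SD was 0.52 ± 0.23 (adjusted p = 0.129) and did not pass, with 0.28 without STZ,SD array 1 and 0.68 without STZ,SD array 2 (adjusted p = 0.0630).

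Mir133a-2, its partner on chromosome 2, read 7.23, 7.29, 6.47, 6.86 and 7.91 in STZ,BEZ. It read 8.06, 6.44, 6.97, 7.04 and 7.10 in STZ,SD, and 6.22, 6.49 and 7.02 as the lowest, median and highest of Con,SD. The groups overlapped, and STZ,SD array 1 was once more the highest of the 17 arrays, as it was for Mir1a-2 and Mir133a-1. The differences were 0.53 ± 0.25 for STZ,SD minus Con,SD (adjusted p = 0.143) and 0.56 ± 0.25 for STZ,BEZ minus Con,SD (adjusted p = 0.134). Neither passed the test, although the first was called without STZ,SD array 2 (0.70, adjusted p = 0.0665) and was 0.30 without STZ,SD array 1. Significance analysis of microarrays, the study's own kind of test, called all 4 of these precursors higher in STZ,SD than in Con,SD. In STZ,BEZ against Con,SD it called 4 of the 8 muscle precursors higher and 0 lower.

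The other muscle precursors were dim and differed little. Mir206, the gene of a microRNA specific to skeletal muscle, had a level of 3.46 and a difference STZ,SD minus Con,SD of 0.08 ± 0.07, and Mir208a, within the heart myosin gene Myh6, had a level of 4.31 and a difference of 0.09 ± 0.08. Mir499, within the slow-type myosin gene Myh7b, had a level of 4.15 and a difference of 0.12 ± 0.10. Mir378a, a microRNA gene within the coactivator gene Ppargc1b, had a level of 5.48 and a difference of 0.01 ± 0.10. None of these 4 was called by limma in any of the 3 comparisons. The host genes had differences of 0.18 for Myh6 and 0.00 for Myh7b in STZ,SD minus Con,SD, neither called.

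**Figure D3:**
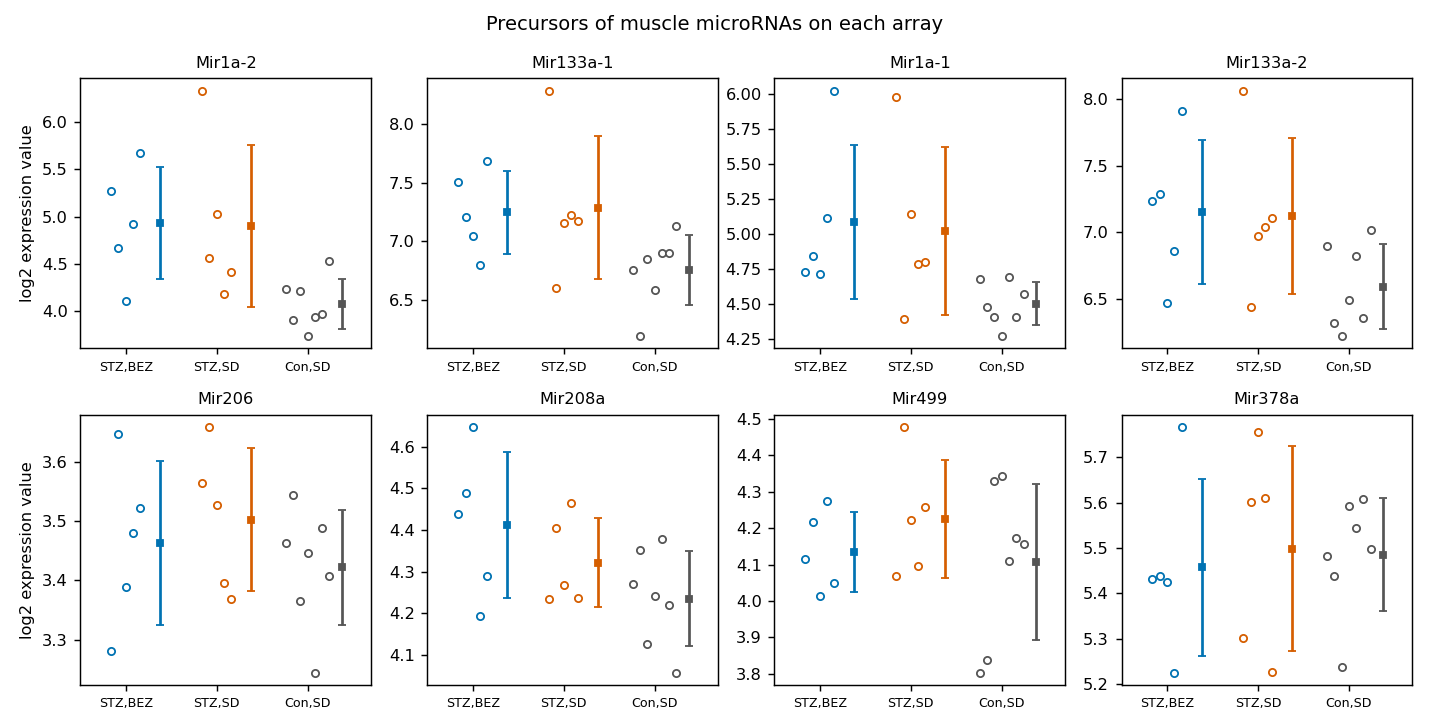
Log2 expression value (y axis) of the 8 muscle microRNA precursors on each array (open circles) of STZ,BEZ, STZ,SD and Con,SD, with the group mean and SD (squares and bars) and an own scale for each panel. The panels of Mir1a-2, Mir133a-1, Mir1a-1 and Mir133a-2 each show STZ,SD array 1 far above the other STZ,SD arrays, at 6.34, 8.28, 5.98 and 8.06.

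All 3 precursors of the miR-99/100 family were called higher in STZ,SD than in Con,SD. Beside this, 14.9% of all precursors and 25.8% of all genes were called, 13.9% of all genes higher. The call of Mir99b held in 9 of the 17 fits that left out 1 array. By their mean over the 17 arrays Mir99a and Mir100 lay at or under the olfactory 95th percentile of 5.85, and only Mir99b lay above it. The family was singled out after its values were seen, so its count is a description. Of 390 distinct seeds among 475 mature sequences, 20 were shared by more than 2 precursors, and ACCCGUA was the 1 among these with every precursor higher. These counts leave out the chromosome of Mir1a-2 and Mir133a-1.

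Mir99a, on chromosome 16, read 6.17, 6.05, 5.75, 5.73 and 6.23 in STZ,BEZ. It read 6.18, 5.79, 6.03, 5.81 and 5.75 in STZ,SD, against 5.28 as the lowest, 5.47 as the median and 5.67 as the highest value in Con,SD. All 10 arrays of both STZ groups lay above all 7 Con,SD arrays. STZ,SD minus Con,SD was 0.44 ± 0.10 (adjusted p = 0.00501) and STZ,BEZ minus Con,SD was 0.52 ± 0.10 (adjusted p = 0.00233).

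Mir100, on chromosome 9, read 4.75, 4.94, 4.83, 4.77 and 4.85 in STZ,BEZ. The STZ,SD arrays read 4.93, 4.65, 4.67, 4.72 and 4.72, and Con,SD had 4.24, 4.40 and 4.84 as its lowest, median and highest values. The groups overlapped through the 2 highest Con,SD arrays. The differences were 0.28 ± 0.09 for STZ,SD minus Con,SD (adjusted p = 0.0358) and 0.37 ± 0.09 for STZ,BEZ minus Con,SD (adjusted p = 0.00913).

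Mir99b, on chromosome 17, read 7.31, 7.30, 7.41, 6.90 and 7.39 in STZ,BEZ. It read 7.16, 7.46, 7.39, 7.51 and 7.35 in STZ,SD, and 6.80, 7.16 and 7.31 as the lowest, median and highest of Con,SD. Of the STZ,SD arrays only array 1 lay within the Con,SD range, while STZ,BEZ and Con,SD overlapped on several arrays. STZ,SD minus Con,SD was 0.25 ± 0.10 (adjusted p = 0.0819), while STZ,BEZ minus Con,SD, 0.13 ± 0.10 (adjusted p = 0.367), did not pass. The call in STZ,SD was lost without any 1 of STZ,SD arrays 2, 3, 4 and 5 or Con,SD arrays 3, 4, 5 and 6, where the difference was 0.19 to 0.25 and the adjusted p 0.101 to 0.171. It was also lost after further quantile normalization, at a threshold of 0.05, with the replicate block and without Con,SD arrays 1, 3 and 4 together.

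Of the let-7 precursors, which encode repressors of growth and cell-cycle mRNAs, 3 of 9 were higher and 0 lower in STZ,SD, beside 13.9% higher and 11.9% lower over all genes, and all 9 differences were above 0 with a median of 0.14. Significance analysis of microarrays called 2 of the 9 higher. Mirlet7c-1, next to Mir99a, read 3.95, 4.01, 3.97, 3.97 and 4.53 in STZ,BEZ, and 4.43, 4.13, 4.24, 4.37 and 3.97 in STZ,SD, against 3.75, 4.02 and 4.09 as the lowest, median and highest of Con,SD. Its difference STZ,SD minus Con,SD was 0.26 ± 0.10 (adjusted p = 0.0867), at a level of 4.08, within that of the olfactory receptors. On 4 of the 5 STZ,SD arrays it lay above all Con,SD arrays. Its call was lost without any 1 of STZ,SD arrays 1, 2, 3 and 4 or Con,SD arrays 1, 5 and 6 (0.21 to 0.29, adjusted p = 0.102 to 0.202) and held in 5 of 11 other settings. Mirlet7e, next to Mir99b, read 7.01, 7.08, 7.12, 7.19 and 6.99 in STZ,BEZ and 7.02, 7.01, 7.05, 6.97 and 7.06 in STZ,SD, against 6.73, 6.90 and 6.98 in Con,SD. Its differences were 0.14 ± 0.05 for STZ,SD minus Con,SD (adjusted p = 0.0722) and 0.20 ± 0.05 for STZ,BEZ minus Con,SD (adjusted p = 0.0183). The call in STZ,SD was lost without any 1 of STZ,SD arrays 1, 2, 3 and 5 or Con,SD arrays 1, 3 and 7 (0.12 to 0.15, adjusted p = 0.103 to 0.143) and held in 5 of 12 other settings. Mirlet7f-2, on the X chromosome, differed by 0.16 ± 0.05 (adjusted p = 0.0432) and 0.22 ± 0.05 (adjusted p = 0.00972) in the same comparisons.

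The remaining members of these clusters did not pass in STZ,SD against Con,SD. Mirlet7a-2, next to Mir100, had a difference of 0.16 ± 0.12 (adjusted p = 0.394), Mir125b-2 of 0.02 ± 0.05, Mir125b-1 of 0.10 ± 0.07 and Mir125a of 0.11 ± 0.09. In STZ,BEZ against Con,SD Mir125b-1 was higher by 0.21 ± 0.07 (adjusted p = 0.0615), a call lost without any 1 of STZ,BEZ arrays 1, 2 and 3 or Con,SD arrays 3 and 6 (0.17 to 0.21).

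**Figure D4:**
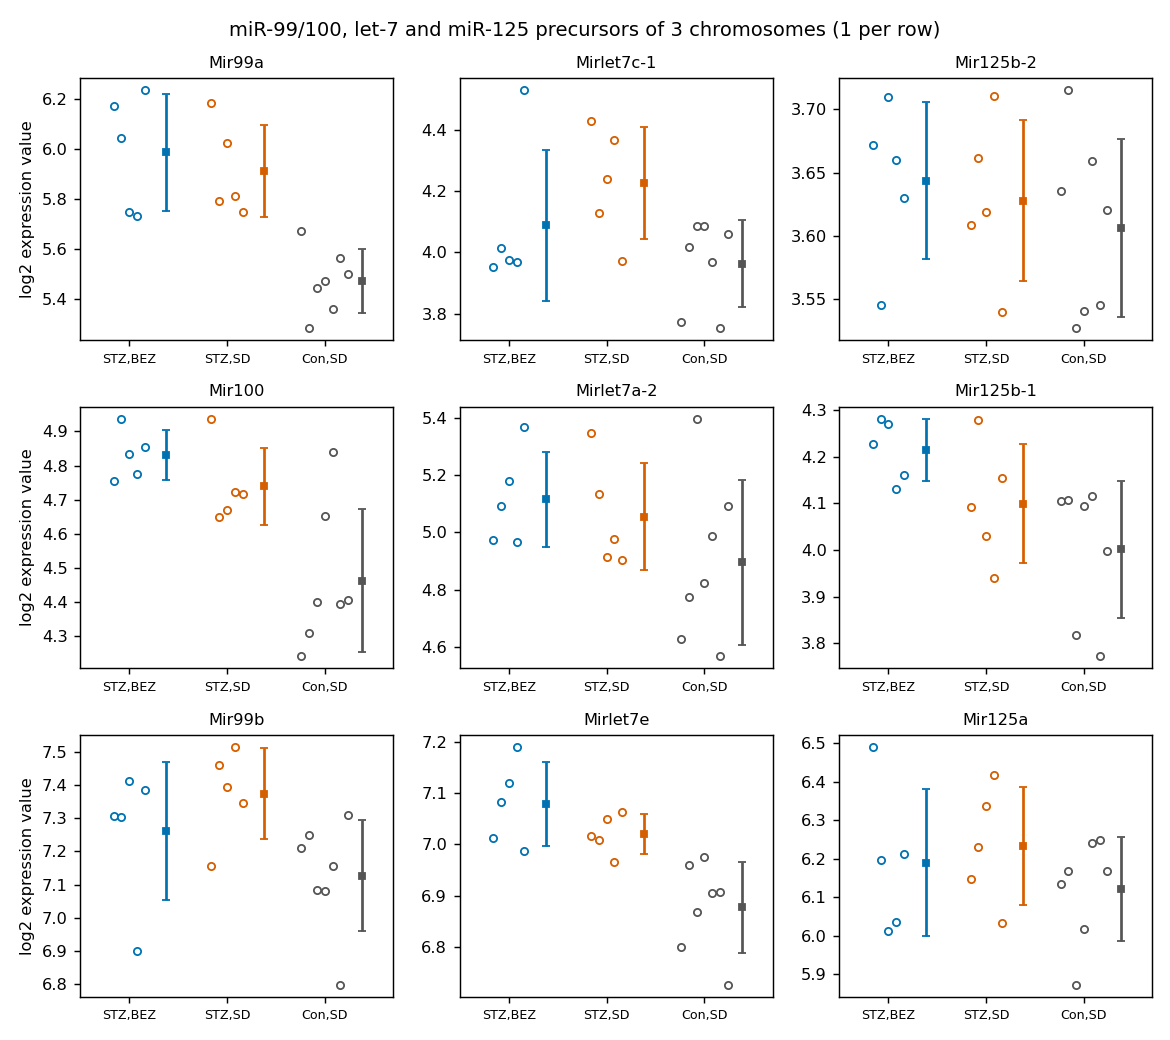
Log2 expression value (y axis) of 9 precursors on each array (open circles) of STZ,BEZ, STZ,SD and Con,SD with the group mean and SD, 1 chromosome per row (16, 9 and 17) and an own scale for each panel. In the left column Mir99a, Mir100 and Mir99b are higher in STZ,SD than in Con,SD by 0.44, 0.28 and 0.25, and in the right column Mir125b-2, Mir125b-1 and Mir125a differ by 0.02, 0.10 and 0.11.

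Further rises came from precursors that are best known from other cell types. Mir145a, made in smooth muscle, read 7.64, 8.08, 7.36, 7.86 and 7.90 in STZ,BEZ, and 7.71, 8.08, 7.86, 7.96 and 7.81 in STZ,SD, against 6.80, 7.19 and 7.78 as the lowest, median and highest of Con,SD. On 4 of the 5 STZ,SD arrays it lay above all Con,SD arrays. The differences were 0.60 ± 0.15 (adjusted p = 0.00871) for STZ,SD and 0.49 ± 0.15 (adjusted p = 0.0352) for STZ,BEZ, each minus Con,SD. The call in STZ,BEZ was lost without STZ,BEZ array 2 (0.41, adjusted p = 0.109). Mir143, its partner in the same cluster, had a difference of 0.19 ± 0.12 in STZ,SD minus Con,SD and was not called. Beside 13.9% of all genes called higher and 11.9% lower, 1 of the 5 smooth muscle markers was higher and 0 lower in STZ,SD. Their mean level was 9.13 to 9.40 in STZ,BEZ, 8.995 to 9.40 in STZ,SD and 8.88 to 9.17 in Con,SD. The gene Des is in this list and also among the skeletal muscle markers. Beside 33.2% called among all genes above the olfactory level, 4 of the 6 endothelial markers were higher and 0 lower. Their mean levels were 9.10 to 9.27 in STZ,BEZ and 9.05 to 9.29 in STZ,SD, against 8.72 to 9.02 in Con,SD. Their part in the precursor results was not tested.

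Mir375, known from pancreatic islets and gut, read 7.11, 7.03, 7.21, 6.82 and 6.88 in STZ,BEZ. The STZ,SD arrays read 6.83, 7.48, 7.50, 7.26 and 7.10, and Con,SD had 6.21, 6.73 and 7.01 as its lowest, median and highest values. Of the STZ,SD arrays only array 1 lay within the Con,SD range, and of the STZ,BEZ arrays 4 and 5 did. STZ,SD minus Con,SD was 0.57 ± 0.14 (adjusted p = 0.00731), and STZ,BEZ minus Con,SD, 0.34 ± 0.14 (adjusted p = 0.101), did not pass.

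Mir155, a microRNA of activated leukocytes, read 5.37, 5.29, 5.10, 5.04 and 5.48 in STZ,BEZ. In STZ,SD it read 5.37, 5.73, 5.67, 5.31 and 5.64, against 4.71, 5.27 and 5.52 as the lowest, median and highest of Con,SD. STZ,SD minus Con,SD was 0.34 ± 0.12 (adjusted p = 0.0487). The call was lost without STZ,SD array 2 (0.30, adjusted p = 0.126), array 3 (0.31, adjusted p = 0.118) or array 5 (0.32, adjusted p = 0.102), and with the hepatocyte level as a covariate. Mir142 and Mir150, the other leukocyte precursors measured, were not called. The 5 leukocyte marker genes measured had mean levels of 6.74 to 7.02 in STZ,BEZ, 6.64 to 7.20 in STZ,SD and 6.76 to 6.97 in Con,SD.

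Mir149, in the interval of the glypican gene Gpc1, read 6.41, 6.50, 6.42, 6.42 and 6.74 in STZ,BEZ. It read 6.33, 6.58, 6.66, 6.57 and 6.73 in STZ,SD, and its Con,SD values had 6.01, 6.21 and 6.27 as lowest, median and highest. Every array of both STZ groups lay above every Con,SD array. The differences from Con,SD were 0.41 ± 0.08 in STZ,SD (adjusted p = 0.00152) and 0.33 ± 0.08 in STZ,BEZ (adjusted p = 0.00832).

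Mir187 read 8.01, 7.56, 7.74, 7.36 and 7.72 in STZ,BEZ and 7.60, 7.89, 7.79, 7.80 and 7.94 in STZ,SD, against 7.16, 7.39 and 7.45 in Con,SD. The STZ,SD and Con,SD arrays did not overlap, and the difference was 0.46 ± 0.09 (adjusted p = 0.00189). Mir677 read 6.54, 6.57, 6.52, 6.93 and 6.91 in STZ,BEZ and 6.76, 6.64, 6.81, 6.62 and 6.37 in STZ,SD, against 5.98, 6.25 and 6.38 in Con,SD. Only STZ,SD array 5 lay within the Con,SD range, and the difference was 0.44 ± 0.09 (adjusted p = 0.00333). Mir505 was higher by 0.42 ± 0.10 (adjusted p = 0.00649), Mir341 by 0.37 ± 0.09 (adjusted p = 0.00602) and Mir32 by 0.33 ± 0.09 (adjusted p = 0.0141).

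Of the 11 precursors that were lower in STZ,SD, those of miR-680, a mouse microRNA with copies on several chromosomes, had the largest difference. Mir680-2 read 7.24, 7.24, 7.22, 8.16 and 7.23 in STZ,BEZ and 7.16, 7.38, 7.22, 7.26 and 7.37 in STZ,SD, against 6.95, 8.00 and 9.67 as the lowest, median and highest of Con,SD. The spread lay in Con,SD, where arrays 3 and 4 read 9.33 and 9.67, the arrays on which the olfactory receptors were also highest. STZ,SD minus Con,SD was -1.01 ± 0.35 (adjusted p = 0.0548), and its call was lost without Con,SD array 3 (-0.83, adjusted p = 0.107) or STZ,SD array 3 (-0.99, adjusted p = 0.105). Mir680-1 had a difference of -0.95 ± 0.40 (adjusted p = 0.109), not called. Mir680-3 read 8.03, 7.75, 7.82, 7.90 and 7.95 in STZ,BEZ and 7.93, 7.89, 7.88, 7.67 and 7.96 in STZ,SD, against 8.19, 8.34 and 8.65 in Con,SD. All 10 arrays of both STZ groups lay below all 7 Con,SD arrays, and the differences were -0.49 ± 0.08 in STZ,SD (adjusted p = 0.000311) and -0.46 ± 0.08 in STZ,BEZ (adjusted p = 0.00076). Since the mature sequence is the same in all 3 copies, RNA of one copy may also be read by the probes of another.

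Mir122, the abundant microRNA of hepatocytes, read 5.46, 5.33, 5.56, 5.39 and 5.35 in STZ,BEZ. It read 5.25, 5.47, 5.33, 5.15 and 5.49 in STZ,SD, and 5.51, 5.80 and 5.96 as the lowest, median and highest of Con,SD. STZ,SD and Con,SD did not overlap, and the difference was -0.45 ± 0.08 (adjusted p = 0.000624). Its level of 5.55 lay under 5.85, the olfactory 95th percentile. The olfactory receptors had a median of -0.15 in the same comparison, with 196 of 1027 lower and 3 higher. Beside 13.9% of all genes called higher and 11.9% lower, 2 of the 14 hepatocyte marker genes were lower and 0 higher in that comparison. Their mean levels were 7.48 to 8.11 in STZ,BEZ, 7.92 to 8.89 in STZ,SD and 7.41 to 11.65 in Con,SD. With the hepatocyte level as a covariate the difference of Mir122 was -0.48.

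Mir713 read 5.22, 4.95, 4.99, 5.54 and 4.97 in STZ,BEZ and 4.80, 4.92, 5.07, 4.82 and 4.94 in STZ,SD, against 4.99, 5.49 and 6.15 in Con,SD. Of the STZ,SD arrays only array 3 reached into the Con,SD range, where STZ,BEZ arrays 1, 3 and 4 also lay, and the difference was -0.57 ± 0.17 (adjusted p = 0.0264). Mir204, a microRNA of the eye and of neurons within the channel gene Trpm3, read 4.01, 3.85, 3.88, 4.14 and 4.04 in STZ,BEZ and 3.77, 4.00, 3.93, 3.79 and 3.85 in STZ,SD, against 4.00, 4.29 and 4.42 in Con,SD. Its STZ,SD and Con,SD values met at 4.00, and the difference was -0.37 ± 0.08 (adjusted p = 0.00326). The other falls were smaller, with Mir216b at -0.27, Mir7b at -0.24, Mir205 at -0.22, Mir15b and Mir367 at -0.20 and Mir302c at -0.17. The calls of Mir216b, Mir7b and Mir205 were lost in 6, 7 and 10 of the 17 fits that left out 1 array. All of these had levels under the olfactory 95th percentile.

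The remaining families changed in few members or in none. In STZ,SD against Con,SD 2 of 6 miR-30 precursors were higher, Mir30d by 0.26 ± 0.08 (adjusted p = 0.0233) and Mir30b by 0.21 ± 0.08 (adjusted p = 0.0785), both on chromosome 15. The call of Mir30b was lost without any 1 of STZ,SD arrays 2 and 4 or Con,SD arrays 1, 3, 4 and 7 (0.17 to 0.20). None of the 13 precursors of the miR-17 to 92 clusters, growth-promoting microRNAs of dividing cells, was called by limma (1 at an unadjusted p under 0.05, and 1 called higher by significance analysis of microarrays), and their median was -0.04. Of the miR-15/16 family, which restrains the cell cycle, 1 of 6 was lower, Mir15b. The imprinted Dlk1-Dio3 cluster, active in muscle stem cells, had 40 precursors, of which 4 were higher and 0 lower, beside 14.9% of all precursors and 25.8% of all genes called, with a median of 0.03. These were Mir341, Mir370, Mir539 and Mir376b, of which Mir370 lost its call without STZ,SD array 3 (0.20), Mir539 without STZ,SD array 5 (0.13) and Mir376b in 7 of the 17 fits that left out 1 array.

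By the same test none of the 2 miR-29, 3 miR-23/24/27, 6 miR-181, 2 miR-26, 4 miR-103 and miR-33, 4 Sfmbt2, 2 erythroid, 1 endothelial, 4 neuronal or 4 epithelial precursors was called in STZ,SD against Con,SD, and significance analysis of microarrays called 0 of them. At an unadjusted limma p under 0.05 there were 1 erythroid and 1 neuronal precursor. The seed AUUGCAC was carried by a precursor that was higher, Mir32, and by one that was lower, Mir367, a gene of pluripotent cells with a level of 3.42. Of the 147 precursors with another within 10 kb, 16 were higher and 3 lower, which is 12.9%, beside 14.9% of all precursors and 25.8% of all genes called.

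BEZ changed no precursor beyond the threshold. In STZ,BEZ against STZ,SD 0 of 296 precursors were called by limma and 0 by significance analysis of microarrays, and 9 had an unadjusted limma p under 0.05. Over all genes 0.0201% were called, 0.0201% higher and 0% lower. The differences ran from -0.29 to 0.32 with a median of -0.02 and a median SE of 0.087. For the muscle precursors the 95% confidence intervals of STZ,BEZ minus STZ,SD were -0.66 to 0.71 for Mir1a-2 and -0.54 to 0.46 for Mir133a-1. They were -0.46 to 0.59 for Mir1a-1 and -0.53 to 0.59 for Mir133a-2. For Mir1a-2 the interval stopped short of the 0.83 between STZ,SD and Con,SD. Those of Mir133a-1, Mir1a-1 and Mir133a-2 leave room, upwards or downwards, for changes as large as theirs between STZ,SD and Con,SD. The interval was -0.15 to 0.30 for Mir99a and -0.20 to 0.12 for Mir206.

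The 5 precursors with the smallest p in that comparison were all lower in value, and none passed. Mir370, of the Dlk1-Dio3 cluster, read 4.89, 4.91, 4.83, 4.84 and 4.95 in STZ,BEZ and 5.08, 5.09, 5.24, 5.14 and 5.08 in STZ,SD, without overlap, against 4.63, 4.85 and 5.18 as the lowest, median and highest of Con,SD. Its difference STZ,BEZ minus STZ,SD was -0.24 ± 0.08 (adjusted p = 0.778). Mir337 and Mir341, of the same cluster, had -0.19 ± 0.07 (adjusted p = 0.778) and -0.21 ± 0.09 (adjusted p = 0.867). Mir219a-2 had -0.22 ± 0.08 (adjusted p = 0.783) and Mir155 -0.29 ± 0.13 (adjusted p = 0.867).

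Between STZ,BEZ and Con,SD, 42 of 296 precursors were called, 27 higher and 15 lower, which is 14.2%. Over all genes 21.6% were called, 13.1% higher and 8.45% lower. The split was 26 higher and 26 lower without Con,SD array 1, the array with the highest hepatocyte marker level, 21 higher and 8 lower without STZ,BEZ array 2, and 30 higher and 25 lower by significance analysis of microarrays. This comparison shares its Con,SD arrays with that of STZ,SD. The rises led with Mir1a-2 and Mir1a-1, followed by Mir181b-2, a microRNA of lymphocytes and vessels, which read 7.97, 8.07, 7.71, 7.79 and 8.42 in STZ,BEZ and 7.66, 7.95, 7.97, 7.45 and 7.33 in STZ,SD, against 6.84, 7.46 and 7.69 in Con,SD. All 5 STZ,BEZ arrays lay above all Con,SD arrays, and the difference was 0.58 ± 0.16 (adjusted p = 0.0209). In STZ,SD minus Con,SD it was 0.26 ± 0.16 and was not called, and the difference STZ,BEZ minus STZ,SD, 0.32 ± 0.17 (adjusted p = 0.915), did not pass. Mir188 was higher by 0.40 ± 0.08 (adjusted p = 0.00308), with 6.25, 6.03, 6.10, 6.29 and 6.18 in STZ,BEZ against 5.52, 5.82 and 5.99 in Con,SD.

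Among the falls, Mir301b read 5.01, 5.10, 5.04, 5.24 and 5.06 in STZ,BEZ and 5.22, 5.32, 5.31, 5.22 and 5.30 in STZ,SD, against 5.10, 5.29 and 6.09 in Con,SD. Its difference of -0.48 ± 0.16 (adjusted p = 0.0542) came with Con,SD arrays 3, 4 and 6 at 6.08, 6.09 and 5.98, while the other 4 Con,SD arrays read 5.10 to 5.29, beside 5.01 to 5.24 in STZ,BEZ. Without Con,SD array 3 it was -0.39 and not called (adjusted p = 0.101). Mir7b differed by -0.36 ± 0.09 (adjusted p = 0.0126), Mir455, a microRNA within a cartilage collagen gene, by -0.30 ± 0.08 (adjusted p = 0.0224) and Mir199a-1 by -0.25 ± 0.09 (adjusted p = 0.0647). Mir298 differed by -0.30, Mir330 by -0.28, Mir204 by -0.26 and Mir337 by -0.24. Of these the call was lost for Mir204 without STZ,BEZ array 2 (-0.22, adjusted p = 0.107), and in 4 of the 17 fits that left out 1 array for Mir199a-1, in 7 for Mir330 and in 11 for Mir298.

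Precursors were then set beside the genes that hold them on the same strand, since an intronic precursor and its host can come from 1 primary transcript. A gene of any strand or type lay around 184 precursors, and 21 lay inside a gene of the opposite strand. Genes of opposite or unknown strand, and genes not among those tested, were left out. That gave 97 pairs of 96 precursors and 76 host genes that were also measured. In STZ,SD against Con,SD both were higher in 5 pairs, the precursor alone was higher in 8 and lower in 1, the host alone was higher in 16 and lower in 4, and neither was called in 63. In 0 pairs were they called in opposite directions. Beside these counts, 25.8% of all genes and 14.9% of all precursors were called in that comparison. The 5 pairs were Mir100 with its own long non-coding host Mir100hg, which was higher by 0.32, Mir32 with Tmem245 (0.22), Mir99b and Mirlet7e with Spaca6 (0.35) and Mirlet7f-2 with the ubiquitin ligase gene Huwe1 (0.32). Spaca6 is 1 host of 2 precursors, so these are 4 hosts.

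Mir677 lies in Atp5b, a subunit gene of the mitochondrial ATP synthase, whose own difference was -0.02 ± 0.04 at a level of 13.2 while the precursor rose by 0.44. Mir341 rose by 0.37 and its host Rian, the maternally expressed non-coding RNA of the Dlk1-Dio3 cluster, differed by 0.01 ± 0.11. Mir204 fell by 0.37 and Trpm3 differed by -0.03 ± 0.06. On the other side, the growth factor gene Igf2 was higher by 0.92 ± 0.21 (adjusted p = 0.00584), with a larger SD in STZ,SD (0.73) than in Con,SD (0.10), while Mir483 in its intron had -0.15 ± 0.08 (adjusted p = 0.218). In STZ,BEZ against Con,SD 7 pairs were both higher, beside 21.6% of all genes and 14.2% of all precursors called. In 2 pairs the precursor was lower and the host higher, Mir483 with Igf2 (-0.21 and 0.61) and Mir330 with the microtubule gene Eml2 (-0.28 and 0.25). The call of Mir483 held in 4 of the 17 fits that left out 1 array and in 5 of 12 other settings, and that of Mir330 in 10 of 17 and 8 of 12.

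**Figure D5:**
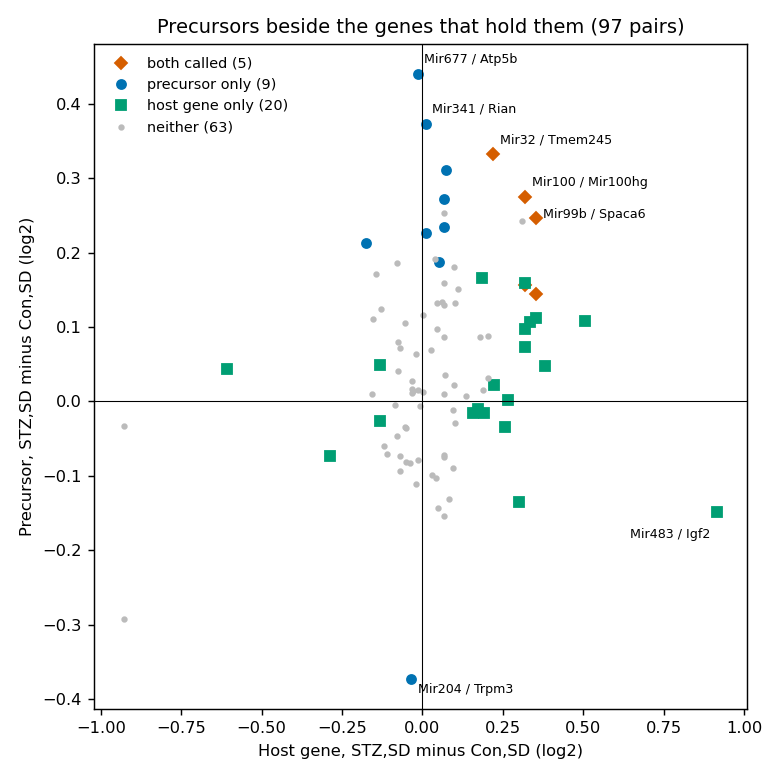
Difference STZ,SD minus Con,SD of each precursor (y axis, log2) against that of the gene around it on the same strand (x axis, log2) for 97 pairs, marked by which of the 2 passed the test. Both passed in 5 pairs, and Mir677 with Atp5b, Mir341 with Rian and Mir204 with Trpm3 lie near 0 on the x axis while their precursors differ by 0.44, 0.37 and -0.37.

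Genes of the microRNA pathway were mostly higher in STZ,SD where they were called. Of 32 listed genes 31 were measured, and in STZ,SD against Con,SD 13 were higher and 3 lower with a median of 0.10, beside 25.8% called and a median of -0.01 over all genes. All but 1 of the 31 lay above the olfactory level, where 33.2% of genes were called with a median of 0.03. Among the nuclear steps, Dgcr8, the RNA-binding partner of Drosha, averaged 7.37 ± 0.07 in STZ,BEZ and 7.35 ± 0.05 in STZ,SD, against 7.09 ± 0.18 in Con,SD (SD), a difference of 0.26 ± 0.08 (SE, adjusted p = 0.0227) between STZ,SD and Con,SD. The helicase Ddx5, which works with Drosha, was higher by 0.37 ± 0.06 (adjusted p = 0.000409). Drosha itself had 0.12 ± 0.05 (adjusted p = 0.125) and the cytoplasmic enzyme Dicer1 0.03 ± 0.06 (adjusted p = 0.767), neither called. Tnrc6c, a silencing partner of the Argonautes, was higher by 0.50 ± 0.08 (adjusted p = 0.000508), and the exonucleases Xrn1 and Xrn2, which degrade RNA, were higher by 0.39 and 0.35. Smad3, a TGF-beta signalling factor that assists some Drosha cuts, differed by -0.60 ± 0.17 (SE, adjusted p = 0.022). Its SD was larger in STZ,SD (0.53) than in Con,SD (0.11). The Argonaute gene Ago4 fell by 0.28 and Tsn, which helps to clear passenger strands, fell by 0.27.

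In STZ,BEZ against STZ,SD 0 of these 31 genes were called by limma or by significance analysis of microarrays, and 3 had an unadjusted limma p under 0.05. In STZ,BEZ against Con,SD 14 were higher and 2 lower, beside 21.6% called over all genes and 27.7% above the olfactory level. Drosha was among those higher there, by 0.19 ± 0.05 (adjusted p = 0.0254). Smad3 was not called there (-0.09 ± 0.17, adjusted p = 0.771).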

How the data were processed

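Total RNA of skeletal muscle, extracted with a kit that keeps small RNAs, was hybridised to Affymetrix Mouse Gene 1.0 ST arrays, 1 per mouse. The authors deposited log2 values from RMA, which corrects background, equalises the arrays' distributions by quantiles and summarises probes by median polish; the submitters' processing notes give Affymetrix Expression Console 1.2 as its software. Values lay between 2.76 and 14.6, array medians between 6.22 and 6.32, and the number of arrays limits the precision. A shift common to most genes is hidden by such normalization. No detection p-values, scan dates or scanner files were used here, so no batch was tested. Probe sets were named through a platform annotation table: of 35556, 21789 had 1 symbol and 1621 several, which gave 19938 genes. RefSeq names, neighbours, strands and sequences came from GRCm38.p6.

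Groups came from the labels, which call the arrays biological replicates. All comparisons came from 1 limma 3.58.1 fit of the 17 arrays in R 4.3.3 (lmFit, eBayes, Benjamini-Hochberg adjusted p under 0.1 over all genes, the 10% false discovery rate that the study's methods name). The script was tested on simulated data. Precursors named were all muscle microRNAs, the 10 largest rises and falls called in each comparison, the 5 of smallest p in STZ,BEZ against STZ,SD, and families as counts with up to 4 members. Members, lists and alternatives were chosen with earlier results of these data known, and the miR-99/100 group and the cluster neighbours after their values were seen. Host genes hold the precursor's interval on the same strand. Alternatives were median centring, further quantile normalization, leaving out the dimmest 30% of genes, averaging over the probe sets of a gene, testing every probe set, only the groups compared, array weights, significance analysis of microarrays with 100 permutations, a threshold of 0.05, the replicate block, the hepatocyte level as a covariate, and leaving out each array or Con,SD arrays 1, 3 and 4.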

Additional observations from a re-analysis of the deposited data

Results flagged for a closer look

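In groups of 5 and 7 arrays, 117 sets of a group and a named precursor were searched for a single array far from the rest, and 4 were found. Chance alone marks about 1 in 20 such sets. Mir680-2 read 8.16 on STZ,BEZ array 4, where the nearest other STZ,BEZ array read 7.24. Mir100 read 4.93 on STZ,SD array 1, with the nearest at 4.72. Mir149 read 6.74 on STZ,BEZ array 5, with the nearest at 6.50. Mir680-3 read 7.67 on STZ,SD array 4, with the nearest at 7.88.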

How the results depend on the processing

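In STZ,SD minus Con,SD the 44 precursors called became 24 when the dimmest 30% of genes were left out, which removed 189 precursors from the test and left 22.4% of the others called, and 29 without STZ,SD array 3. Leaving out each array in turn gave 29 to 46. In STZ,BEZ minus Con,SD the 42 became 21 without the dimmest genes (19.6% of those tested) and 26 at an adjusted p under 0.05, and leaving out each array gave 29 to 52. Both comparisons gave 33 precursors when Con,SD arrays 1, 3 and 4 were dropped, and the 16 pathway genes called in STZ,BEZ minus Con,SD became 10. Leaving out each array gave 14 to 17 pathway genes in STZ,SD minus Con,SD and 11 to 18 in STZ,BEZ minus Con,SD. With the hepatocyte level as a covariate the precursors called in STZ,BEZ minus Con,SD were 23 higher and 28 lower. The count of 0 in STZ,BEZ minus STZ,SD stayed 0 under each alternative. Of the precursors called, 25 of 44 and 21 of 42 were called whichever array was left out, and 18 and 19 under every alternative in which they were tested. The cause of the other changes was not tested.

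The replicate numbers are only names: deviations of same-numbered arrays correlated at -0.04 to 0.07 between STZ,SD and Con,SD, at -0.24 to -0.03 between STZ,BEZ and STZ,SD and at -0.08 to 0.08 between STZ,BEZ and Con,SD, and 0 of 5 arrays correlated best with their own number. The replicate block was fitted on arrays 1 to 5 of each group, so Con,SD arrays 6 and 7 were also left out. In that fit 35 precursors were called in STZ,SD minus Con,SD (32 of them shared with the 44). It called 0 in STZ,BEZ minus STZ,SD and 34 in STZ,BEZ minus Con,SD.

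Among the precursors named for each comparison, only uncalled values near 0 changed sign. Mir378a in STZ,SD minus Con,SD was 0.01 and became -0.0059 with array weights, -0.0023 with the hepatocyte covariate, -0.023 without the 3 Con,SD arrays and -0.051 to 0.082 with single arrays left out. In STZ,BEZ minus Con,SD, Mir378a was -0.03 and became 0.022 after further quantile normalization, and -0.11 to 0.029 with single arrays left out. Mir499 was 0.03 and became -0.11 with the hepatocyte covariate, and -0.025 to 0.065 with single arrays left out. Mir206 was 0.04, and -0.0046 to 0.087 with single arrays left out.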
